A study of Mus musculus with 4 samples.

Results

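The 10 genes described here encode core parts of the 2 Polycomb repressive complexes. Ezh1, Ezh2, Eed, Suz12 and Jarid2 belong to PRC2, and Ring1, Rnf2, Bmi1, Pcgf2 and Cbx2 belong to PRC1. The rule that picks them lists gene names, drawn up with earlier results of these data known, and each gene was found by its Ensembl identifier among the 23162 genes or tag clusters with a count in the deposited table. All 10 passed the filter on low counts and were among the 13718 features tested. RNA came from forelimbs and hindlimbs dissected from CD1 mouse embryos at E14.5, with 2 biological replicates of each limb type and so 4 libraries. Whole limbs were used, so each library mixes cartilage, muscle, skin, blood, vessel and connective tissue cells, and fewer cells of a type and less RNA per cell cannot be told apart. The labels do not say whether a replicate held limbs of 1 or several embryos, nor whether forelimb and hindlimb with the same number came from the same animals.

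Polycomb proteins keep developmental genes silent. PRC2 places methyl groups on lysine 27 of histone H3 through its catalytic subunit, EZH2 or EZH1, and PRC1 places ubiquitin on histone H2A through its RING subunit, RNF2 (RING1B) or RING1. The Hox clusters, which set position along the body and limb axes, are classic targets: loss of Polycomb genes shifts Hox expression boundaries in the mouse embryo, and in the limb the complexes take part in keeping parts of the HoxA and HoxD clusters closed.

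Expression was measured by tag counting (DGE-SAGE). Complementary DNA was cut with NlaIII at CATG, and the 17 bases beside the cut were sequenced and counted, ideally once per transcript from the CATG nearest the poly(A) tail. Tag counts are therefore not divided by transcript length, and levels of different genes are compared here in CPM, counts scaled by library size. The most abundant tag of each of the 10 genes is printed below, since each value that follows is a count of such sequences and their base composition bears on the comparison of the limb types. CATG in capitals marks the NlaIII site, taken from the matching GENCODE M21 transcript, and the lower-case letters are the counted tag.
Ezh1: CATGcgctccagccgcccact
Ezh2: CATGtgcagctttctgttcaa
Eed: CATGaggttttctatggattt
Suz12: CATGtaagatgataaagcatt
Jarid2: CATGtataagtgctgcttaca
Ring1: CATGgggaccacagggtgtct
Rnf2: gggaaaagtcgaataaa
Bmi1: CATGtttgtatgggaaactgt
Pcgf2: CATGgctctcccagctcccac
Cbx2: CATGtgtgtagtgcgccagcg
The Rnf2 tag, assigned to that gene in the deposited table, matched no M21 transcript next to a CATG and is printed without the site. The Ezh1 and Pcgf2 tags were the richest in G and C, at 76.5% and 70.6% of their 17 bases. The Suz12 and Eed tags were among the poorest, at 23.5% and 29.4%.

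Library totals were 4695786 and 1829647 tags in the forelimb replicates and 5325279 and 5015295 in the hindlimb replicates, and a single count came to 0.621 CPM in the smallest library, forelimb replicate 2, against 0.224 to 0.256 CPM elsewhere. Limb identity followed the labels: Tbx5, the forelimb T-box factor, was lower in hindlimb (log2 fold change -3.77), and Tbx4 (2.95) and Pitx1 (6.72), which specify hindlimb, were higher, all called by edgeR. The libraries also differed in base composition. G and C made up 40.8% and 40.4% of the bases of the counted tags in the forelimb replicates, against 46.4% and 50.5% in the hindlimb replicates. Since this difference separates the limb types in all 4 libraries, the design alone cannot tell a limb-type difference apart from a tag-composition difference. Each comparison is therefore given without and with an offset fitted per library to the bases of the tags, which was estimated only from differences between tags of 1 gene. With that offset Tbx5 (-3.92), Tbx4 (2.86) and Pitx1 (3.35) were still called.

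Of the 10 Polycomb genes, 2 were higher in hindlimb (Pcgf2 and Ring1), 2 were lower (Eed and Rnf2), and 6 did not pass the test (edgeR's quasi-likelihood test, Benjamini-Hochberg adjusted p under 0.05). Over all features tested the same rule called 16.7%, with 9.58% higher in hindlimb and 7.08% higher in forelimb. The CPM values of the limb types did not overlap for 7 of the 10 genes, against 62.8% of all features. With the tag-sequence offset edgeR called none of the 10 and 0.182% of all features. An unadjusted p under 0.05 was then reached by none of the 10 and by 1294 of the 13718 features. Without the offset 4 of the 10 and 4451 features reached it in edgeR. DESeq2, run without an offset, called the same number of members (4) and 18.1% of the features it tested. The median log2 fold change of the 10 genes, hindlimb over forelimb, was -0.11 without the offset and 0.05 with it, beside -0.029 and -0.013 for all features tested. Errors of log2 fold changes are SE throughout.

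**Figure D1:**
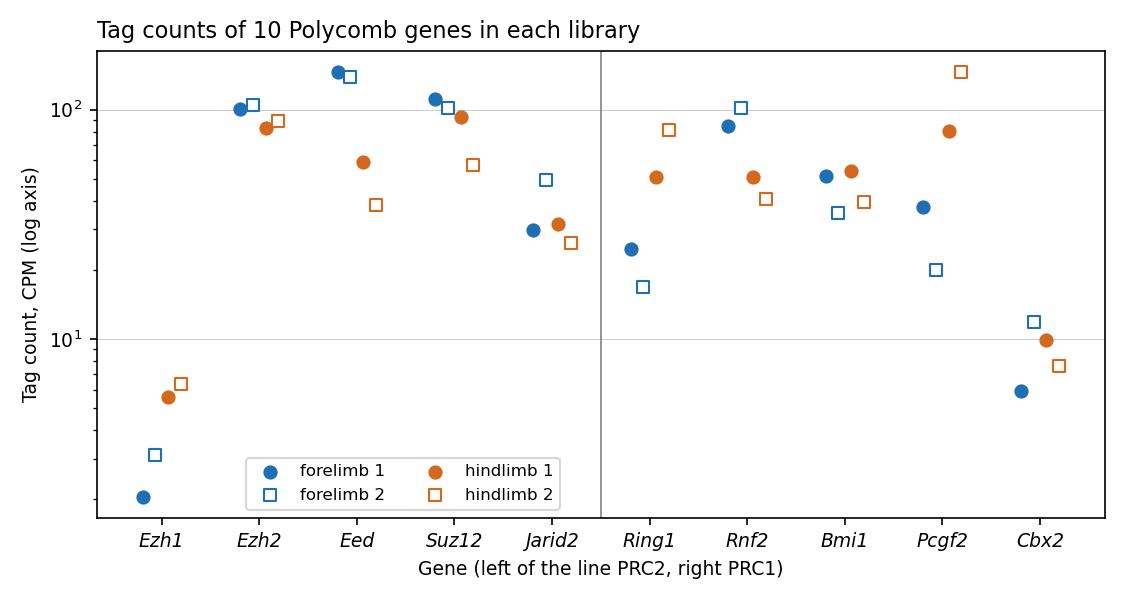
Tag counts of the 10 Polycomb genes in CPM on a log axis, 1 point per library (filled circles replicate 1, open squares replicate 2; blue forelimb, orange hindlimb). Eed, Rnf2, Ezh2 and Suz12 sit lower in both hindlimb libraries, and Ring1, Pcgf2 and Ezh1 sit higher. Of these, edgeR called Eed, Rnf2, Ring1 and Pcgf2. Jarid2, Bmi1 and Cbx2 overlap. Ezh1 and Cbx2 are the 2 lowest genes in every library.

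Among the PRC2 genes, Eed showed the only difference that passed the test. EED is the subunit that binds methylated lysine 27 of histone H3 and stimulates the enzyme. Its tag counts were 569 and 223 in the forelimb replicates and 264 and 151 in the hindlimb replicates, or 146 and 139 CPM against 59.0 and 38.3 CPM. Both forelimb values lay above both hindlimb values. The means were 142 ± 5.06 and 48.7 ± 14.7 CPM (SD, n = 2 each), which put hindlimb 2.92-fold below forelimb. On the log2 scale Eed differed by -1.55 ± 0.34 (SE; edgeR adjusted p = 0.00585). With the tag-sequence offset the corrected levels were 96.4 and 78.9 CPM in forelimb and 85.5 and 70.2 CPM in hindlimb. These overlap, and the fitted log2 fold change was -0.26 ± 0.23 (edgeR adjusted p = 0.787). Corrected levels, here and below, are the CPM without the offset divided by the offset. The fit recomputed the scaling of the libraries with the offset, so these levels and the fold changes are not on the same scale. Whether close values overlap can depend on that scaling. The tag printed above, in coding exon 10 of Eed, held 84.2% of the gene's counts. Eed (ENSMUSG00000030619) lies at chr7:89954654-89980983 on the minus strand of GRCm38, with the leading tag at chr7:89956265-89956285.

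Ezh2, the catalytic subunit that predominates in dividing cells, was among the most abundant of the 10 genes. It was counted at 100.4 and 105.0 CPM in forelimb and at 82.9 and 89.5 CPM in hindlimb. The forelimb values were the higher ones without overlap, but the difference was small against its error (log2 fold change -0.25 ± 0.31; edgeR adjusted p = 0.626). With the offset the sign turned (0.34 ± 0.24; edgeR adjusted p = 0.717). Its tag counts were spread over 11 tags, and the 3 most abundant did not all lie in the same direction. The leading one, in coding exon 17, had 235, 103, 169 and 118 counts in the forelimb and then hindlimb replicates. Ezh2 (ENSMUSG00000029687) is annotated at chr6:47530139-47595341 on the minus strand of GRCm38, with the leading tag at chr6:47532913-47532933.

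Ezh1, the paralog of Ezh2 that is more prominent in tissues that divide little, was the least abundant of the 10 genes in all 4 libraries. Ezh1 ranked last with the offset too, but the offset leaves tag-sequence bias between genes of the same library in place. Its counts were 8 and 5 in forelimb and 25 and 25 in hindlimb, or 2.05 and 3.11 CPM against 5.59 and 6.34 CPM. The limb types did not overlap, yet with 63 counts in all the error was wide: 1.25 ± 0.87 on the log2 scale (edgeR adjusted p = 0.340), and with the offset -0.58 ± 0.86 (edgeR adjusted p = 0.879). Its leading tag lies in the 3' UTR at exon 21 and held 84.1% of the counts. Ezh1 (ENSMUSG00000006920) sits at chr11:101191115-101226463 on the minus strand of GRCm38, with the leading tag at chr11:101191316-101191336.

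SUZ12 is the scaffold that holds the PRC2 core together. Suz12 (ENSMUSG00000017548) lies at chr11:79993106-80034123 on the plus strand of GRCm38, with the leading tag at chr11:80033972-80033992. Suz12 was counted at 111 and 101 CPM in forelimb and at 92.3 and 57.0 CPM in hindlimb. The forelimb values were higher without overlap, and the hindlimb replicates differed from each other more than the nearest values of the limb types did. The log2 fold change was -0.51 ± 0.34 (edgeR adjusted p = 0.311) and -0.08 ± 0.23 with the offset (edgeR adjusted p = 0.946). Its leading 3' UTR tag, printed above, gave 322 and 89 counts in forelimb and 282 and 107 in hindlimb. The next tag, 1 CATG further upstream in the same 3' UTR and richer in G and C (35.3%), gave 66 and 29 against 64 and 52. In CPM the second tag was at 16.9 and 18.02 in forelimb and at 14.3 and 13.2 in hindlimb, the lower values in both hindlimb libraries.
Suz12 second tag: CATGgtgtcttcagagattta

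JARID2 is an accessory subunit that helps bring PRC2 to its target genes. Jarid2 (ENSMUSG00000038518) is annotated at chr13:44729474-44921643 on the plus strand of GRCm38, with the leading tag at chr13:44921148-44921168. Jarid2 was counted at 29.96 and 49.1 CPM in forelimb and at 31.7 and 26.1 CPM in hindlimb, so the limb types overlapped. The log2 fold change was -0.43 ± 0.39 (edgeR adjusted p = 0.479), and with the offset it was 0.19 ± 0.29 (edgeR adjusted p = 0.882). The most abundant tags of Jarid2 all lie in the 3' UTR. The leading tag, shown above, gave 38 and 35 counts in forelimb and 68 and 57 in hindlimb, while the second, 2 CATG sites further upstream, gave 40 and 22 against 18 and 6. In CPM the leading tag was at 9.73 and 21.7 in forelimb and at 15.2 and 14.45 in hindlimb, which overlap, and the second at 10.2 and 13.7 against 4.02 and 1.52, which do not.
Jarid2 second tag: CATGtgcaatttcccgacatt
The proportions of the tags of Jarid2 did not pass the test of tag usage (edgeR diffSpliceDGE adjusted p = 0.698).

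Among the PRC1 genes, Pcgf2 and Ring1 were higher in hindlimb. Pcgf2 encodes MEL18, a PCGF subunit that partners the RING enzyme, as BMI1 does. Its tag counts were 146 and 32 in forelimb and 361 and 575 in hindlimb, or 37.4 and 19.9 CPM against 80.7 and 146 CPM. Both hindlimb values lay above both forelimb values, and the replicates of each limb type also lay well apart. The means were 28.6 ± 12.4 and 113 ± 46.0 CPM (SD, n = 2 each), a log2 fold change of 1.94 ± 0.40 (edgeR adjusted p = 0.00409) or 3.85-fold. Corrected for tag sequence, the levels were 73.3 and 40.9 CPM in forelimb and 54.5 and 53.5 CPM in hindlimb. The hindlimb values then fell between the forelimb ones, and the sign of the log2 fold change turned to -0.22 ± 0.28 (edgeR adjusted p = 0.855). Without forelimb replicate 2, the shallowest library, the call ended (log2 fold change 1.59; edgeR adjusted p = 0.0663).

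Most counts of Pcgf2 lay in 1 of its 8 tags. Pcgf2 (ENSMUSG00000018537) sits at chr11:97688823-97700497 on the minus strand of GRCm38, with its leading tag at chr11:97690146-97690166. The tag printed above, in coding exon 11, held 73.0% of the counts and gave 60 and 12 counts in forelimb against 275 and 466 in hindlimb. The second tag, in coding exon 9, held 15.8% and gave 55 and 9 against 50 and 62.
Pcgf2 second tag: CATGaccgtcatgcacctggc
In CPM the second tag was at 14.1 and 5.59 in forelimb and at 11.2 and 15.7 in hindlimb, so its limb types overlapped. Both tags are rich in G and C (70.6% and 64.7%). The leading tag made up 41.1% and 37.5% of the counts of Pcgf2 in forelimb and 76.2% and 81.0% in hindlimb, a difference in proportions that did not pass the test of tag usage (edgeR diffSpliceDGE adjusted p = 0.315). Of the 9 members with 2 or more tags to compare, that test called none at an adjusted p under 0.05, against 4.37% of all genes tested. None of the 9 had an unadjusted p under 0.05 in that test, and the share of all genes at that threshold was not counted.

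RING1 is one of the paralogous E3 ubiquitin ligases at the core of PRC1. Ring1 (ENSMUSG00000024325) lies at chr17:34020792-34024680 on the minus strand of GRCm38, with the leading tag at chr17:34021339-34021359. Ring1 had 96 and 27 counts in forelimb and 227 and 321 in hindlimb, or 24.6 and 16.8 CPM against 50.7 and 81.4 CPM. Both hindlimb values were higher. The log2 fold change was 1.65 ± 0.39 (edgeR adjusted p = 0.00959), or 3.13-fold, and the tag printed above, in the 3' UTR of exon 7, held 85.1% of the counts. With the offset it was 0.46 ± 0.29 (edgeR adjusted p = 0.670), with corrected levels of 35.7 and 23.8 CPM in forelimb and 46.4 and 43.2 CPM in hindlimb that still did not overlap. The call also ended without forelimb replicate 2 (1.41; edgeR adjusted p = 0.111) and without hindlimb replicate 2 (1.28; edgeR adjusted p = 0.0513).

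Rnf2, which encodes RING1B, the main H2A ubiquitin ligase of PRC1, was lower in hindlimb. It was counted at 84.5 and 101 CPM in forelimb and at 50.5 and 40.6 CPM in hindlimb, without overlap. The log2 fold change was -1.02 ± 0.33 (edgeR adjusted p = 0.0442), or 2.03-fold, and with the offset it was -0.19 ± 0.24 (edgeR adjusted p = 0.859). Its 879 counts were spread over 20 tags, of which the second most abundant lies at the last CATG of the M21 transcript.
Rnf2 second tag: CATGttcgctgaatataactc
That tag had 16 and 18 counts in forelimb and 71 and 20 in hindlimb, so that hindlimb replicate 1, at 15.9 CPM, lay above both forelimb values (at most 11.2 CPM). Tags that matched no M21 transcript held 30.6% of the counts of Rnf2. Rnf2 (ENSMUSG00000026484) is annotated at chr1:151458004-151500955 on the minus strand of GRCm38, with the second tag at chr1:151469603-151469623. Of the 4 calls, that of Rnf2 ended under the most alternatives (10 of 17). It ended with only the tags that match 1 reference gene (-0.84), with the most abundant tag alone (-1.04) and with the last CATG site alone (-0.79). Leaving out forelimb replicate 1 (-1.15), its fellow replicate 2 (-0.90) or hindlimb replicate 2 (-0.86) ended it as well.

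Bmi1, the paralog of Pcgf2 known for repressing the Cdkn2a locus, did not pass the test. It was counted at 51.2 and 35.4 CPM in forelimb and at 53.7 and 39.6 CPM in hindlimb, and each limb type had 1 higher and 1 lower replicate. The log2 fold change was 0.09 ± 0.37 (edgeR adjusted p = 0.891), and 0.18 ± 0.28 with the offset (edgeR adjusted p = 0.881). Tags that match more than 1 reference gene held 64.8% of the counts assigned to Bmi1, so the level of Bmi1 is uncertain to that extent. The leading tag, which also matches Gm5946, is among them and held 56.2%. Bmi1 (ENSMUSG00000026739) sits at chr2:18677018-18686629 on the plus strand of GRCm38, with the leading tag at chr2:18685834-18685854.

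CBX2 is the chromodomain subunit that reads methylated lysine 27 and compacts chromatin. Cbx2 (ENSMUSG00000025577) lies at chr11:119022962-119031270 on the plus strand of GRCm38, with the leading tag at chr11:119031173-119031193. Cbx2 was scarce, with 23 and 19 counts in forelimb and 44 and 30 in hindlimb, or 5.89 and 11.8 CPM against 9.84 and 7.61 CPM. The limb types overlapped. The log2 fold change was 0.03 ± 0.61 (edgeR adjusted p = 0.981) and 0.52 ± 0.56 with the offset (edgeR adjusted p = 0.830). A tag with no M21 match held 34.5% of its counts, and 21 of the 23 counts in forelimb replicate 1 came from it.

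**Figure D2:**
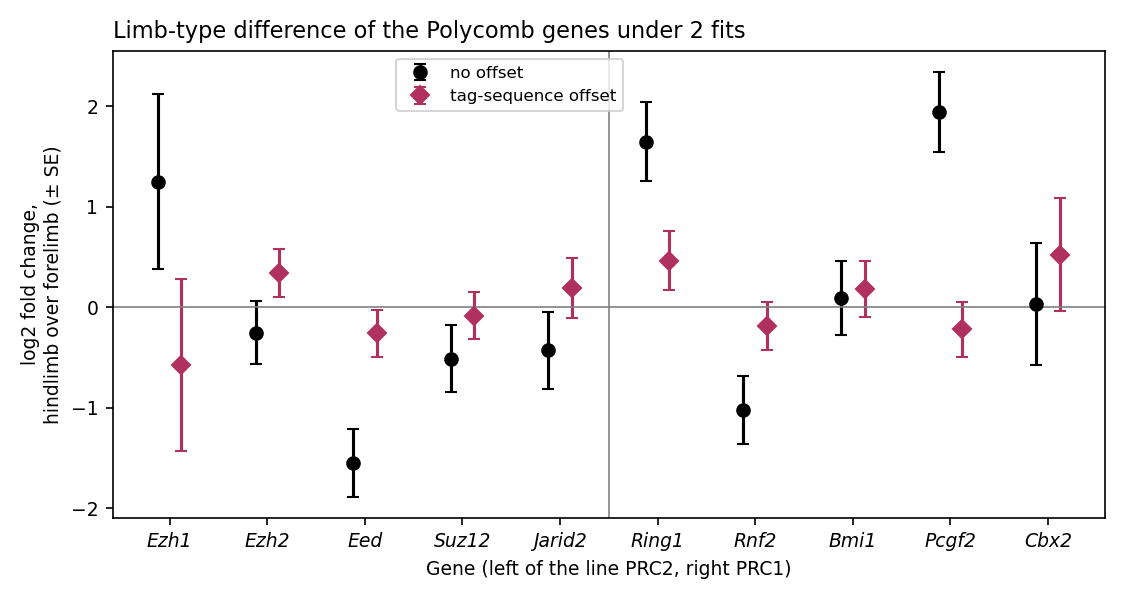
Log2 fold change, hindlimb over forelimb, with its SE for each of the 10 genes, without an offset (black circles) and with the tag-sequence offset (red diamonds). With the offset the values run from -0.58 (Ezh1) to 0.52 (Cbx2), and Ezh1, Ezh2, Jarid2 and Pcgf2 change sign.

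The sign of the differences went with the base composition of the tags. The 4 members whose counted tags averaged more than 50% G and C (Ezh1, Pcgf2, Ring1 and Cbx2) all had a log2 fold change above 0, and of the 6 below 50%, 1 (Bmi1) did. Across the 10 genes Spearman's rho between tag GC and log2 fold change was 0.79 without the offset and 0.030 with it, and across all features tested it was 0.66 and -0.022. These are descriptions over genes that share the same 4 libraries. Among all features with tags of 60% to 70% GC, where Pcgf2 (68.2%) and Ring1 (63.3%) lie, the median log2 fold change was 1.30 and 41.0% were called higher in hindlimb. Among those of 30% to 40%, where Eed (31.0%), Rnf2 (33.9%), Bmi1 and Jarid2 lie, the median was -0.57 and 12.8% were called higher in forelimb. Pcgf2 (1.94) and Ring1 (1.65) lay above the median of their class and Eed (-1.55) and Rnf2 (-1.02) below that of theirs, while Bmi1 (0.09) lay on the other side of 0. A simpler offset that used GC alone also ended all 4 calls. The values were -0.83 for Eed (edgeR adjusted p = 0.0590), 0.37 for Ring1, -0.40 for Rnf2 and 0.30 for Pcgf2. At an adjusted p under 0.05 edgeR with that offset called none of the 10 and 824 of the 13718 features. An unadjusted p under 0.05 was reached by 2 of the 10, and the share of all features at that threshold was not counted.

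**Figure D3:**
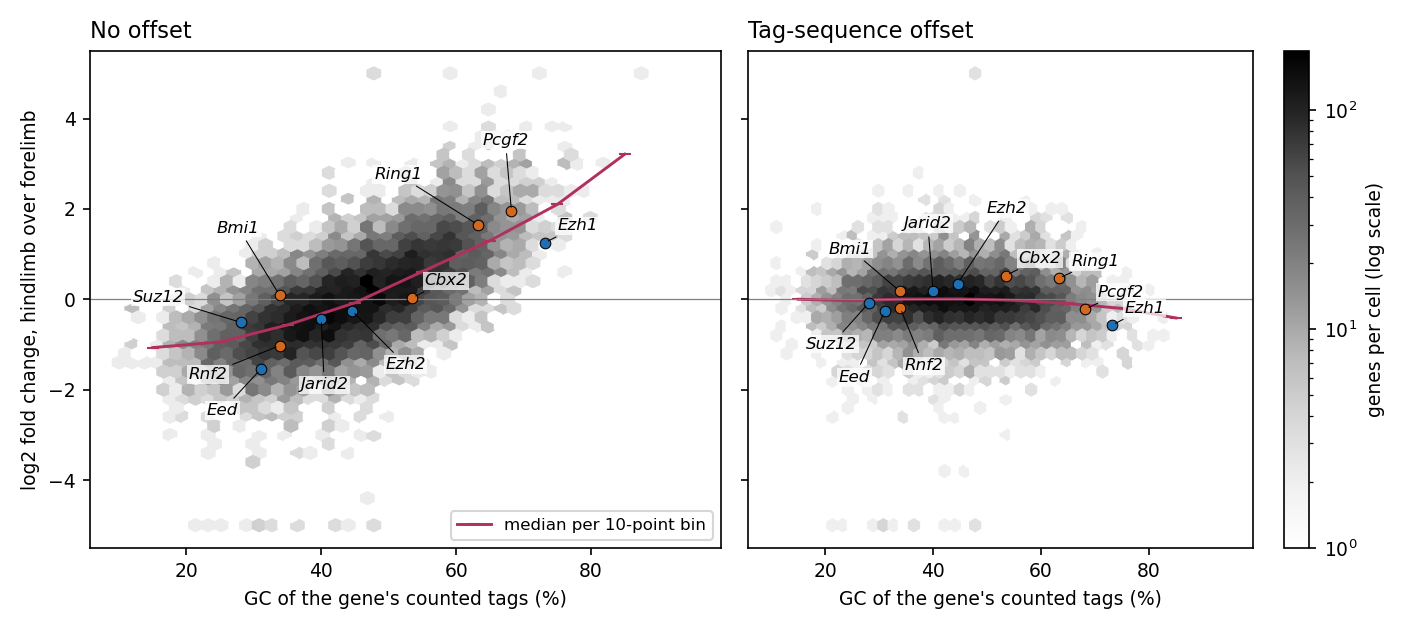
Log2 fold change, hindlimb over forelimb, against the GC percent of each gene's counted tags, for all tested features (grey, darker where more genes fall in a cell; values beyond 5 drawn at the edge) and for the 10 Polycomb genes (blue PRC2, orange PRC1), without the offset at left and with it at right. The red line is the median per 10-point bin. Without the offset it climbs from -1.07 at 10% to 20% to 3.21 at 80% to 90%. With the offset it lies between -0.030 and 0.0082 up to 60%. Above that it falls to -0.092 at 60% to 70%, -0.20 at 70% to 80% and -0.41 at 80% to 90%.

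Paralogs that fill the same place in a complex were compared within each library, where depth cancels. EZH2 and EZH1 are alternative catalytic subunits, and Ezh2 made up 98.0% (Wilson 95% interval 96.1 to 99.0) and 97.1% (93.5 to 98.8) of the pair in forelimb and 93.7% (90.8 to 95.7) and 93.4% (90.4 to 95.5) in hindlimb. Ezh2 thus outnumbered Ezh1 by 49.0 and 33.8 to 1 in forelimb and by 14.8 and 14.1 to 1 in hindlimb. With the offset the shares were 96.0%, 92.4%, 95.9% and 98.1%, and the difference of the limb types changed sign. The offset leaves tag-sequence bias between genes of the same library in place. It is therefore no second measure of how far Ezh2 outnumbered Ezh1.

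RNF2 and RING1 share the place of the ligase. Rnf2 made up 77.5% (73.3 to 81.2) and 85.8% (80.1 to 90.0) of the pair in forelimb and 49.9% (45.3 to 54.5) and 33.3% (29.2 to 37.6) in hindlimb. The limb types did not overlap, and the mean share differed by -40.1 percentage points, hindlimb minus forelimb. With the offset the shares were 63.7%, 75.0%, 57.3% and 59.3%, and the forelimb values stayed the higher ones. The offset is centred over the 4 libraries. It removes differences between libraries, and tag-sequence bias between 2 genes of the same library stays. It therefore cannot show which ligase gene was the more abundant in hindlimb, where Rnf2 had 226 and 160 counts and Ring1 had 227 and 321. Bmi1 made up 57.8% (52.5 to 62.9) and 64.0% (53.7 to 73.2) of Bmi1 and Pcgf2 together in forelimb and 39.9% (36.1 to 43.9) and 21.3% (18.5 to 24.5) in hindlimb. With the offset the shares were 38.7%, 45.6%, 46.0% and 49.3%, and the order of the limb types turned. Each of the 3 differences had an exact two-sided permutation p of 0.333 (0.333 adjusted over the 3), the smallest that 2 libraries against 2 can give. The intervals cover counting error only, since tags are PCR products without molecular identifiers.

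The PRC2 genes together outnumbered the PRC1 genes by 1.91 and 2.14 to 1 in forelimb, by 1.11 to 1 in hindlimb replicate 1, and were fewer in hindlimb replicate 2 (0.690 to 1). In CPM the PRC2 sum was 389 and 397 in forelimb and 272 and 217 in hindlimb, and the PRC1 sum was 204 and 185 against 245 and 315. Both sums separated the limb types, in opposite directions. With the offset the ratio was 1.44, 1.46, 1.44 and 1.42 in the 4 libraries. Because the offset is centred over the libraries, these values bear on the difference between libraries and not on the level of the ratio. No test was made of a sum over the members, and the 5 genes on each side do not stand in fixed proportion to the amount of complex.

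**Figure D4:**
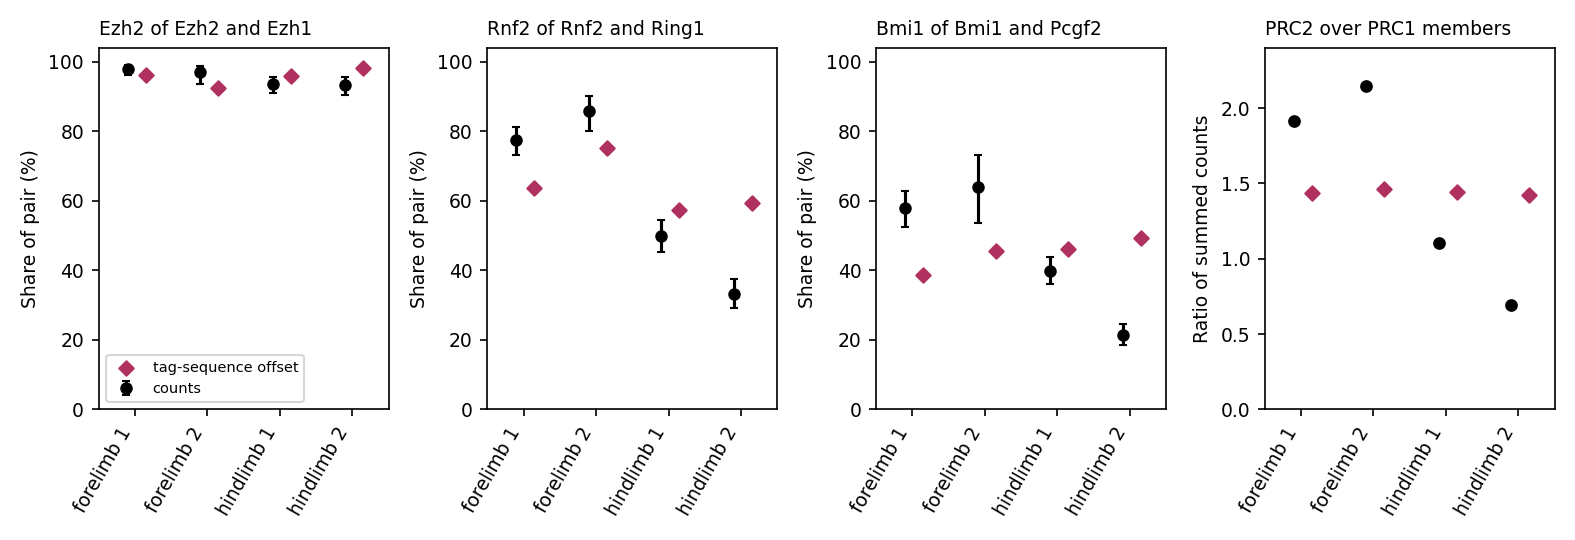
Share of 1 paralog in each pair (percent) and, at right, the ratio of summed PRC2 to summed PRC1 counts, per library, from counts (black, with Wilson 95% intervals for the shares) and with the tag-sequence offset (red diamonds, no interval). The black PRC2 to PRC1 points range from 2.14 to 0.690, and the red ones lie between 1.42 and 1.46.

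Of 26 other Polycomb subunits tested, 1 was higher in hindlimb, 2 were lower and 23 did not pass the test (11.5% called, against 16.7% of all features). With the offset edgeR called none of these subunits, with 2 at an unadjusted p under 0.05. Their median log2 fold change was -0.20 without and with the offset. Phf1, a Polycomb-like PRC2 accessory subunit that reads methylated histone H3, was counted at 6.15 and 4.35 CPM in forelimb and at 18.8 and 25.9 CPM in hindlimb (log2 fold change 2.04 ± 0.51; edgeR adjusted p = 0.0126; tag GC 70.8%), and with the offset its log2 fold change was 0.14. Rbbp7, a histone-binding subunit shared with other chromatin complexes, was counted at 562 and 513 CPM against 275 and 241 CPM (-1.06 ± 0.31; edgeR adjusted p = 0.0258; tag GC 36.5%) and at -0.14 with the offset. Pcgf1, the PCGF subunit of a variant PRC1, was at 41.2 and 36.0 CPM against 19.0 and 5.32 CPM (-1.66 ± 0.49; edgeR adjusted p = 0.0281) and at -0.67 with the offset. Without an offset each of these 3 calls ended with 1 or another library left out. That of Pcgf1 ended without forelimb replicate 1 (-1.55) or hindlimb replicate 2 (-1.01) and after thinning to the smallest library (-1.28), its log2 fold change was -2.87 without hindlimb replicate 1, and it had no value from tags that match 1 reference gene. That of Phf1 ended without forelimb replicate 2 (1.84) or hindlimb replicate 2 (1.81) and at the last CATG site (1.38). That of Rbbp7 ended without forelimb replicate 1 (-0.99), forelimb 2 (-1.13) or hindlimb 2 (-0.95). Phf1, with tags rich in G and C, lay above 0, and Rbbp7 and Pcgf1 (tag GC 37.7%), with poorer tags, lay below. None of the 7 canonical PRC1 subunits tested (Cbx7 was too scarce) was called by edgeR or DESeq2, with 1 at an unadjusted p under 0.05 by edgeR. Counted by the most abundant tag alone, edgeR called 2 of the 7, and 2927 of 12478 features. By the last CATG site alone it called 2 of the 5 tested, and 2224 of 9562 features. The most abundant of the 7 canonical PRC1 subunits were Cbx6 (143 and 152 CPM against 118 and 138 CPM) and Phc2 (52.2 and 60.9 against 77.8 and 99.6 CPM), a polyhomeotic subunit.

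Genes that oppose Polycomb were compared in the same way. Of 6 genes for H2A deubiquitination or removal of methyl groups from lysine 27, 1 was called (16.7%, the share of all features too), Kdm6b, which encodes the demethylase JMJD3. It was counted at 26.1 and 35.4 CPM in forelimb and at 72.7 and 100.7 CPM in hindlimb (log2 fold change 1.51 ± 0.36; edgeR adjusted p = 0.00992), and the sign turned with the offset (-0.67). Without an offset the call of Kdm6b also ended with tags of 1 reference gene (1.07), the most abundant tag (0.85), the last CATG site (1.51; edgeR adjusted p = 0.0524) and without forelimb replicate 1 (1.29). Of 12 Trithorax group genes, which mark active chromatin, 2 were higher in hindlimb (Setd1a at 2.49 ± 0.41 and Ash2l at 1.72 ± 0.40) and 1 was lower (Kmt2c at -1.85 ± 0.34). The share called was 25%, against 16.7% of all features. The call of Ash2l ended without forelimb replicate 2 (1.48) or hindlimb replicate 2 (1.24) and at the last CATG site (1.05). With the tag-sequence offset Setd1a, Ash2l and Kmt2c were at -0.050, -0.065 and -0.19, and edgeR called none of the 12, with none at an unadjusted p under 0.05. With the GC offset Kmt2c alone of the 12 stayed called (-0.94; edgeR adjusted p = 0.0489).

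**Figure D5:**
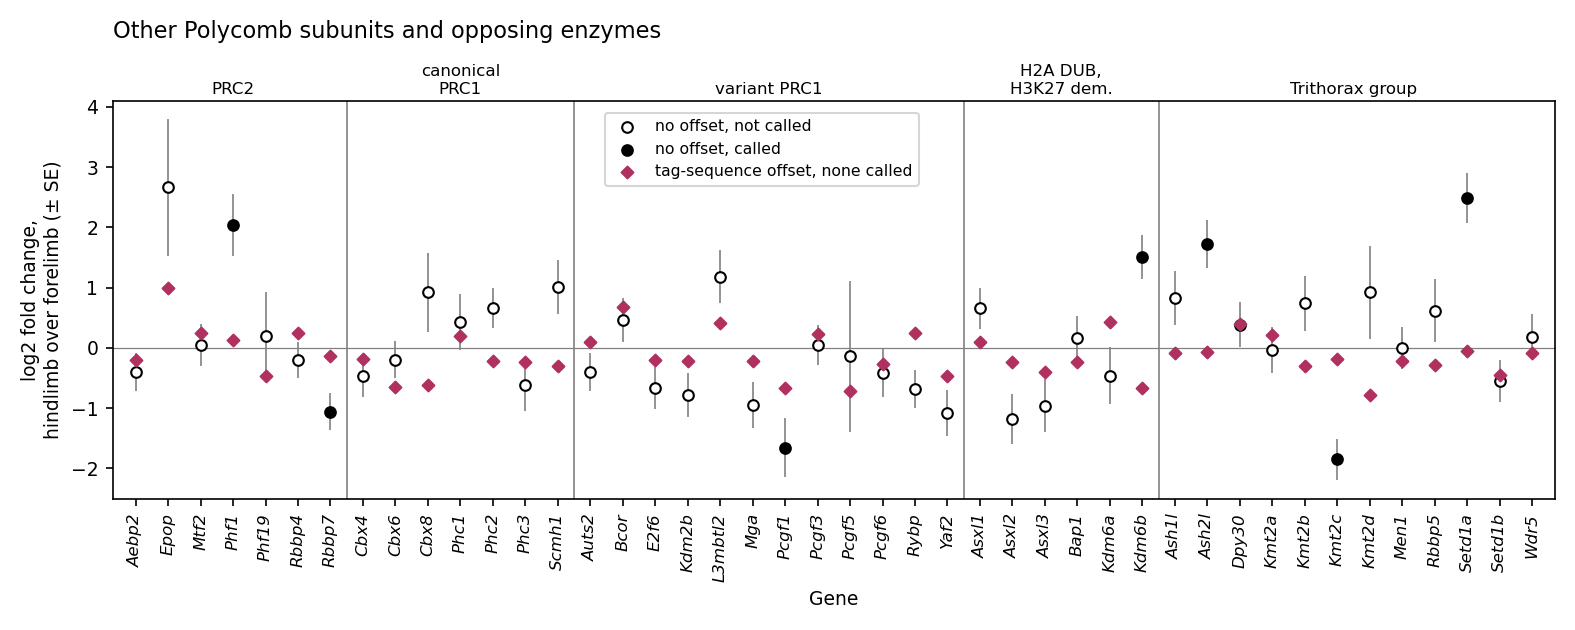
Log2 fold change, hindlimb over forelimb, of the other Polycomb subunits, the opposing enzymes and the Trithorax group genes tested, with its SE (circles, filled where edgeR's adjusted p was under 0.05) and with the tag-sequence offset (red diamonds). Phf1, Rbbp7, Pcgf1, Kdm6b, Ash2l, Kmt2c and Setd1a are filled, and no diamond passed the test.

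Among targets, 36 of 39 Hox genes had a row in the table and 25 were tested. Of these, 4 were higher in hindlimb, 2 were lower and 19 did not pass the test (24% called, against 16.7% of all features). Hoxc10, a posterior Hox gene of the hindlimb, was counted at 1.28 and 1.24 CPM in forelimb and at 17.4 and 19.5 CPM in hindlimb (log2 fold change 3.83 ± 0.66; edgeR adjusted p = 0.00168), and of the Polycomb, opposing, Hox and proliferation genes it alone was still called with the offset (3.75; edgeR adjusted p = 0.0153). Hoxa11, a gene of the middle limb segment, was called lower in hindlimb (-1.46 ± 0.40; edgeR adjusted p = 0.0186) and turned to 0.61 with the offset. Its call ended without forelimb replicate 2 (-0.95) or hindlimb replicate 2 (-1.17). Hoxa3 was called higher in hindlimb (2.46) but not without hindlimb replicate 2 (1.80), and was at 0.18 with the offset. Hoxb9, with 3 and 0 counts in forelimb and 36 and 25 in hindlimb, was called higher in hindlimb, and its fitted log2 fold change of 3.74 was 3.61 with the offset, where it was no longer called (edgeR adjusted p = 0.285). Its call also ended without forelimb replicate 2 (3.17), hindlimb replicate 1 (3.56) or hindlimb replicate 2 (3.92), and without forelimb replicate 1, which leaves a forelimb count of 0, the fitted value was 7.60 and is no measure of size. Cdkn2a and Cdkn2b, cell-cycle inhibitors that Polycomb represses, were too scarce to test, with 5, 2, 1 and 8 counts and 9, 8, 3 and 0 counts in the forelimb and then hindlimb replicates.

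Of 13 proliferation genes, 1 was higher in hindlimb (Mcm5 at 1.03) and 3 were lower (Pcna at -1.43, Cdk1 at -1.45 and Mcm6 at -1.10). The share called was 30.8%, against 16.7% of all features. With the tag-sequence offset edgeR called none of the 13, with 1 at an unadjusted p under 0.05. Each of these 4 calls also ended with 1 library left out: Mcm5 without forelimb replicate 1 (1.07) or 2 (0.997), Pcna without forelimb replicate 2 (-1.31), Cdk1 without forelimb replicate 2 (-1.27) or hindlimb replicate 2 (-0.92), and Mcm6 without forelimb replicate 1 (-0.98), forelimb 2 (-1.20) or hindlimb 2 (-0.75). Cdk1 was at -2.29 without hindlimb replicate 1, and Pcna was at -0.29 when counted by the last CATG site alone. The call of Mcm5 ended by that count (1.04) and by the most abundant tag (1.14) too. With the GC offset Mcm5 stayed called (1.20; edgeR adjusted p = 0.0116), while with the tag-sequence offset it was at -0.038. The 5 skeletal muscle markers summed to 2599 and 2128 CPM in forelimb and to 833 and 925 CPM in hindlimb. Acta1 held most of that sum. In hindlimb 3 of the 5 were called lower, Acta1 also with the offset, but the markers did not all go one way. Myod1 was at 19.7 and 20.5 against 25.9 and 44.1 CPM (log2 fold change 0.80), and Myog overlapped (-0.32). Neither passed the test. The 4 cartilage markers summed to 1532 and 1335 against 2239 and 3627 CPM, but they did not go one way. Col2a1, which holds most of that sum, was called higher in hindlimb (1098 and 777 against 1864 and 3293 CPM; log2 fold change 1.46, and 0.26 with the offset), Matn1 was called lower (251 and 365 against 137 and 120.2 CPM; -1.26), and Sox9 (0.35) and Acan (0.09) did not pass the test. The 4 limb mesenchyme markers summed to 1222 and 1289 against 1366 and 1097 CPM, which overlap, but Twist1 held most of that sum. Prrx2 (2.04) and Msx1 (1.19) were called higher in hindlimb, though not with the offset (0.23 and 0.18). Prrx1 (-0.45) and Twist1 (-0.14) did not pass the test. Of the neuron markers, Tubb3 was at 39.4 and 59.0 against 27.3 and 17.2 CPM and did not pass the test (-1.13; edgeR adjusted p = 0.0571), and Snap25 was at 0 in both forelimb libraries and at 2 counts in each hindlimb library. The part of these tissues in the differences of the Polycomb genes was not tested.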

How the data were processed

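The authors deposited 1 table of raw tag counts, whole numbers per 17-base tag and library, with a UniGene cluster and Ensembl gene where one was assigned. Bowtie and mm9 were used, per the submitters' processing notes (Bowtie's version: not given in the sources used here). Counts were summed per Ensembl gene, or per cluster where no gene was given. Tags that had neither, which held 14.8% to 18.7% of the counts, were left out of library sizes and fits. Tags were matched to GENCODE M21 transcripts (GRCm38) beside each CATG, and 98.0% of the counts of tags that matched 1 gene carried the same gene in the table.

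Hindlimb was compared with forelimb in edgeR 4.0.16 (R 4.3.3; TMM, filterByExpr, quasi-likelihood test, Benjamini-Hochberg over all features, 0.05), with 2 residual degrees of freedom and no block. CPM are TMM-scaled. The tag-sequence offset holds base and position terms per library, fitted on 35661 tags of 8719 genes, only on differences between tags of 1 gene. Tag usage was tested with diffSpliceDGE on tags of at least 10 counts. DESeq2 1.42.0 was an alternative. Replicates differed by more than sampling noise (chi-square per degree of freedom 9.04 in forelimb and 21.9 in hindlimb).

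Named were all 10 members, up to 3 tags of each, and of each other list up to 4 called genes with the smallest p or else the 2 most abundant. The members, lists and this rule were chosen with earlier results of these data known. The alternatives are other size factors, DESeq2, no low-count filter, a replicate block, a GC offset, the tag-sequence offset, tags of 1 reference gene, the most abundant tag, the last site, thinning to the smallest library and leaving out each library.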

Additional observations from a re-analysis of the deposited data

How the results depend on the processing

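Base composition of the tags and the number of libraries set the limits here. Without an offset 2285 features, 4 members and 17 genes of the other lists were called. A GC offset gave 824, 0 and 4, the tag-sequence offset 25, 0 and 1, and the replicate block with the tag-sequence offset 50, 0 and 1. The most abundant tag alone gave 26 of 75 genes of the other lists, against 17 of 82 with all tags. Over all features it gave 2927 of 12478, against 2285 of 13718. The cause was not tested. Leaving out 1 library gave 950 (without forelimb replicate 2) to 3900 (without hindlimb replicate 1) features, 1 to 4 members and 6 to 25 genes of the other lists. The labels do not pair the samples. With the replicate number as a block 2151 features, 3 members and 16 genes of the other lists were called, the member lost being Rnf2 (-1.03; edgeR adjusted p = 0.0631), and tag usage called 0 members with and without it. Deviations of samples with the same number correlated at -0.103, and the numbers crossed as a block, chosen after seeing the data, gave 3170, 4 and 20. The other size factors, DESeq2, no low-count filter and thinning left 4 members called, of 9 tested after thinning. Those settings called from 2076 (DESeq2, of 11486) to 2583 features (no low-count filter, of 23162). The tags of 1 reference gene, the most abundant tag and the last site left 3 members. They called 2024 of 11435, 2927 of 12478 and 2224 of 9562 features.

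With the 3 offsets in the order above (GC, tag-sequence, block with tag-sequence), the log2 fold change turned sign at -0.67, -0.58 and -0.59 for Ezh1, -0.83, -0.22 and -0.22 for Phc2, -0.41, -0.67 and -0.67 for Kdm6b and -0.093, -0.065 and -0.036 for Ash2l. With the tag-sequence offset, without and with the block, it turned at 0.34 and 0.35 for Ezh2, 0.19 and 0.20 for Jarid2, -0.22 and -0.15 for Pcgf2, -0.050 and -0.084 for Setd1a, 0.61 and 0.62 for Hoxa11, -0.038 and -0.037 for Mcm5, and 0.19 and 0.19 for Mcm6. With the GC offset Suz12 turned to 0.30 and Cbx2 to -0.45. Cbx2, at 0.03, also turned with library totals alone (-0.0067), in DESeq2 (-0.0064), without forelimb replicate 1 (-0.43) and without hindlimb replicate 1 (-0.18), and Bmi1 turned without forelimb replicate 2 (-0.14) and without hindlimb replicate 1 (-0.16). With 1 library left out, Bmi1 ran from -0.16 to 0.40 and Cbx2 from -0.43 to 0.56. Of 168 values of the members over the alternatives, 131 kept their direction and side of the threshold, 20 lost the call and 17 turned. The 6 uncalled members passed the test in none of their 100 values.

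The mean share of Ezh2 in its pair, hindlimb minus forelimb, went from -4.03 to 2.77 percentage points with the tag-sequence offset, and that of Bmi1 from -30.3 to 5.50. The log2 difference of the PRC2 to PRC1 ratio was -1.21, and -0.020 with the tag-sequence offset, -2.52 with the most abundant tag, -2.00 with the last site and -1.55 to -0.87 with 1 library left out. Depth limits Ezh1 and Cbx2 most: Ezh1 did not pass the filter after thinning and had no adjusted p in DESeq2.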
